A study of Mus musculus with 3 samples.

Results

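miR-483 and miR-675 are the miRNAs of the imprinted Igf2-H19 locus, and their features were examined on miRNA arrays of matrix vesicles (MVs). The features were chosen by name alone, as all mouse miRNA features whose names begin with mmu-miR-483- or mmu-miR-675-. This gave 4 of the 1079 mouse miRNA features on the array, namely mmu-miR-483-5p, mmu-miR-483-3p, mmu-miR-675-5p and mmu-miR-675-3p, which are the 5p and 3p arms of 2 hairpins. MVs are small vesicles that bud from osteoblasts into unmineralized bone matrix, where mineral first forms. They were prepared from the extracellular matrix laid down by MC3T3-E1 cells, an established osteoblastic line from mouse calvaria, in 3 independent isolations that used 500 units/mL collagenase and ultracentrifugation. Total RNA (100 ng) of each isolation was labeled with Cy3 and hybridized to 1 array. All 3 arrays belong to 1 group of MVs from 1 cell line, so no groups were compared and no test between groups was possible. Cells were kept in osteogenic medium, which contained β-glycerophosphate according to the labels but lacked it in the cultures used for MVs according to the methods.

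The Igf2-H19 locus is a textbook case of genomic imprinting. Igf2, which encodes a fetal growth factor, is read from the paternal chromosome, and H19, a long non-coding RNA, from the maternal one. miR-483 is carried in an intron of Igf2, and miR-675 is cut from the first exon of H19 and is known to restrain growth of the placenta. Each hairpin is cut into a 5p and a 3p strand, of which usually 1 is kept by Argonaute and the other is degraded. A miRNA recognizes its targets mainly through its seed, bases 2 to 8 of the mature strand.

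In the RefSeq annotation of GRCm38.p6, both hairpins lie on the minus strand of chromosome 7, Mir675 at chr7:142577064-142577147 and Mir483 at chr7:142654924-142654996, with 77776 bases between them. Mir675 lies within H19 and Mir483 within Igf2, no other annotated gene spans either hairpin, and the only annotated gene wholly between the hairpins is the lncRNA gene Gm33148. The array tables name no genome build, so these positions belong to the RefSeq entries of the same names. The 4 mature strands are shown 5′ to 3′, with the seed in capitals, because the strands of miR-483 differ from each other more in base composition than those of miR-675.
mmu-miR-483-5p: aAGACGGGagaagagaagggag
mmu-miR-483-3p: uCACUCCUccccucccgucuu
mmu-miR-675-5p: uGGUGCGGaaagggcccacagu
mmu-miR-675-3p: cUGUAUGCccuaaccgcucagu

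The same strands are shown in capitals within their hairpins, to place the arms on either side of the loop.
Mir483: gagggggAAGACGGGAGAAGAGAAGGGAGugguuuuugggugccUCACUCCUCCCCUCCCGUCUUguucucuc
Mir675: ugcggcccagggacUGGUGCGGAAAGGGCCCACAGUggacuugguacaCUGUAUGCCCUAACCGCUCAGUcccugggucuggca

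Each of the 4 seeds was unique among the RefSeq entries used here, as 0 other mature mouse miRNAs there carried any of them. The entries of 1 chromosome were left out, so their seeds were not compared. miR-483-5p has 10 A, 11 G, 1 C and 0 U in its 22 bases, so 95.5% of its bases are purines. miR-483-3p, of 21 bases, is 9.52% purine, with 12 C and 7 U. The miR-675 strands, of 22 bases each, are less extreme, with 63.6% purines for the 5p and 36.4% for the 3p strand.

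Of the 4 features, miR-483-5p was detected and the other 3 were not. Detection is the present or absent call that the scanner software gave to each feature. miR-483-5p was detected in isolations 2 and 3 and was not detected in isolation 1. miR-483-3p, miR-675-5p and miR-675-3p were below detection in all 3 isolations, so 0 of their 9 readings were detected. Over all mouse miRNAs, 16.7% were detected in at least 1 isolation and 7.78% in all 3. The arrays of isolations 1, 2 and 3 gave detected shares of 7.97%, 16.6% and 15.2%. With 4 features, 1 detected feature does not set the locus apart from this background.

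Isolation 1 stands apart: only 86 mouse miRNAs were detected there, while isolation 2 had 179 and isolation 3 had 164. Of 5 miRNAs known from mesenchymal cells and osteoblasts, miR-199a-3p and miR-214-3p were detected in all 3 isolations and miR-199a-5p in isolations 2 and 3. The summed signal of those detected was 27.1, 502 and 378.6 in isolations 1, 2 and 3, so the first sum lacks miR-199a-5p. The other 2 of this list, miR-143-3p and miR-145a-5p, were below detection throughout, as were all 6 miRNAs listed for blood, liver and neurons. The part of these differences in the detection of miR-483-5p was not tested. Whether an isolation held fewer vesicles of one kind or less of a miRNA per vesicle cannot be told apart in bulk RNA.

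The total gene signal of miR-483-5p (linear intensity as deposited, with no shift between arrays) was 10.7 in isolation 2, with an error of 1.94 given by the scanner software, and 5.63 in isolation 3, with an error of 1.34. On the log2 scale these are 3.43 and 2.49, a mean of 2.96 ± 0.66 (SD, n = 2). In isolation 1 the deposited signal is 0.1, the value that every undetected feature carries, and it is no level. The lowest detected signal of any mouse miRNA was 4.87, 4.39 and 4.41 in isolations 1, 2 and 3, so the signal of miR-483-5p lay 2.45-fold above the dimmest detected miRNA in isolation 2 and 1.28-fold above it in isolation 3. The detection call coincided throughout with a signal over 3 times its error, so the lowest detected signal depended on the error of the feature. Among features with an error of at least 2, the dimmest detected ones had signals of 7.71, 8.17 and 7.82 in isolations 1, 2 and 3, and miR-483-5p was among only 9 and 12 detected miRNAs with an error under 2 in isolations 2 and 3. The errors of miR-483-3p and both miR-675 strands at detection are unknown, so the arrays give neither a level nor a common bound for them.

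**Figure D1:**
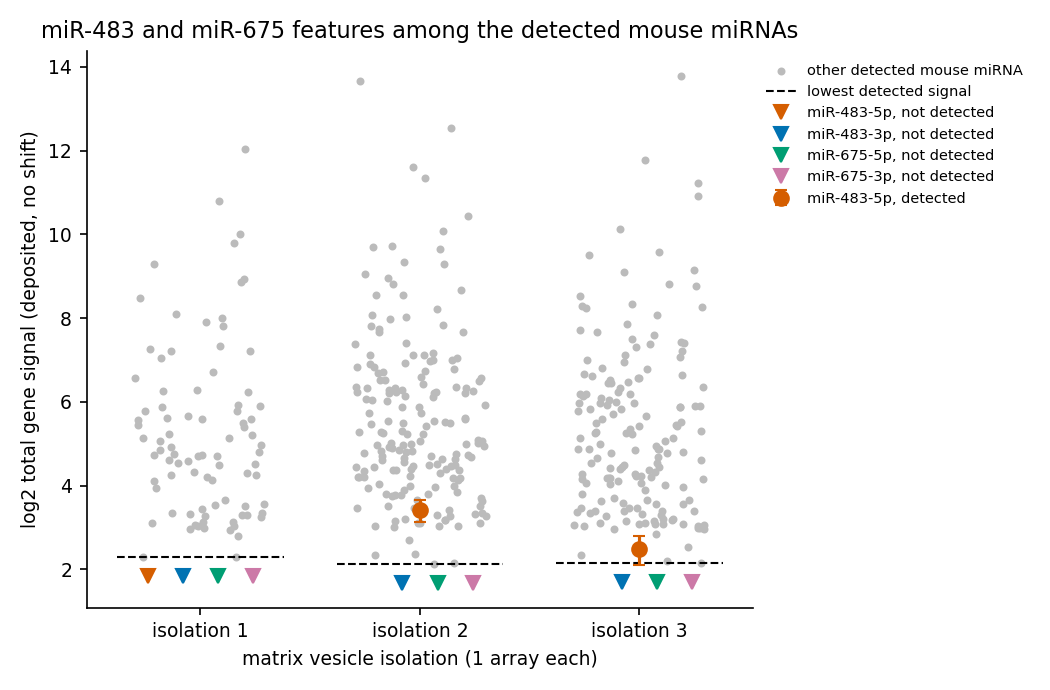
Log2 total gene signal (vertical axis, as deposited) of the detected mouse miRNAs in each of the 3 isolations (horizontal axis, 1 array each). The orange circles are miR-483-5p with bars for signal ± its error, at 3.43 in isolation 2 and 2.49 in isolation 3, near the lower end of the grey points; the triangles under the dashed line (lowest detected signal) mark the miR-483 and miR-675 features that were not detected and give no level.

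Ordered by signal, miR-483-5p took place 157 of the 179 miRNAs detected in isolation 2 and place 161 of the 164 in isolation 3. Thus 22 detected miRNAs were dimmer in isolation 2 and 3 in isolation 3. Its place is not sharply set by these arrays. The signals of 28 other detected miRNAs, between places 145 and 173, lay within the combined error of miR-483-5p in isolation 2, and those of 16 others, between places 147 and 164, did so in isolation 3. Its nearest neighbors in isolation 2 were miR-718 (signal 11.1) above and miR-5103 (10.6) below, and in isolation 3 miR-712-5p (5.82) above and miR-1930-3p (5.07) below. None of these 4 neighbors differed from it beyond the errors. The median signal of detected miRNAs was 3.16 times that of miR-483-5p in isolation 2 and 5.35 times in isolation 3. Its share of the summed signal of all detected mouse miRNAs was 0.0253% in isolation 2 and 0.0160% in isolation 3. Because each probe responds differently to its target, the places order signals rather than amounts of RNA.

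The error was 18.1% of the signal of miR-483-5p in isolation 2 and 23.8% in isolation 3. Its ratio of signal to error was therefore 5.53 and 4.20, below the medians of the detected miRNAs (8.59 and 7.79) and above the lowest ratios of a detected miRNA (3.09 and 3.05). Counted from the lowest ratio, it was at place 45 of 179 in isolation 2 and 30 of 164 in isolation 3, which is higher than its places by signal. Requiring a signal over 5 times its error, a limit chosen after the values were seen, would keep miR-483-5p in isolation 2 and drop it in isolation 3.

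Between the isolations in which it was detected, the signal of miR-483-5p was 1.91-fold higher in isolation 2. The ranges given by signal ± error, 8.80 to 12.7 in isolation 2 and 4.29 to 6.98 in isolation 3, did not overlap. As a log2 difference, isolation 3 minus isolation 2 was -0.93 with a combined error of 0.43, which covers the error of the 2 arrays alone. Part of this difference was lost when the arrays were shifted. Isolation 2 was then 1.32-fold higher relative to the 90th percentile of each array and 1.51-fold relative to the 75th percentile of miRNAs detected throughout. Quantile normalization gave 1.15-fold, but it averages each place by signal over all 3 arrays. At the places of miR-483-5p, isolation 1 holds undetected features with a signal of 0.1. The 1.15-fold therefore cannot show how much of the difference between isolations 2 and 3 was lost. The 164 mouse miRNAs detected in both isolations had a median difference of -0.39 (SD 0.44 across miRNAs), ranging from -1.87 to 0.90, and 18 of them had a lower difference than miR-483-5p. Its distance from the median was -0.54 log2 units, slightly larger than its combined error. A further 15 miRNAs detected in isolation 2 were not detected in isolation 3 and have no difference, so lower signals in isolation 3 are undercounted here. Of the 55 other miRNAs with at most 2 times the signal of miR-483-5p in isolation 2, a limit also set after the values were seen, 14 were not detected in isolation 3. Among the remaining 41 the median was -0.30 and 5 were lower than miR-483-5p.

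**Figure D2:**
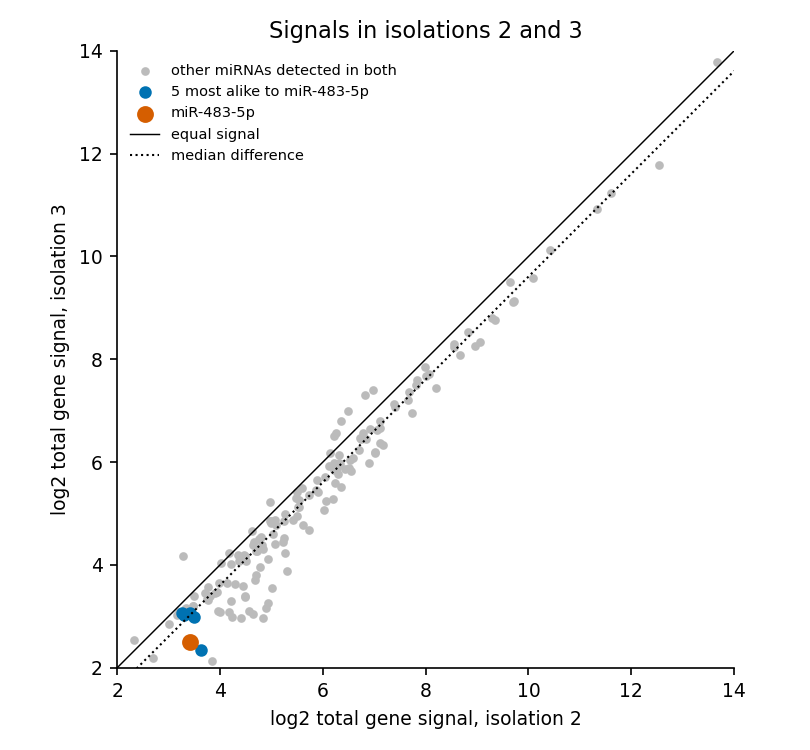
Log2 total gene signal in isolation 2 (horizontal axis) and isolation 3 (vertical axis) of the 164 mouse miRNAs detected in both. miR-483-5p (orange) lies at 3.43 and 2.49, at the dim end and below the dotted line of the median difference of -0.39, beside the 5 miRNAs of the most similar signals (blue).

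The absence of a call in isolation 1 was shared by most miRNAs of such a low signal. Of the 22 miRNAs dimmer than miR-483-5p in isolation 2, 1 was detected in isolation 1 and 11 in isolation 3. Of the 156 brighter ones, 84 were detected in isolation 1 and 152 in isolation 3. In all, 79 other mouse miRNAs had the same pattern, detected in isolations 2 and 3 and not in isolation 1. Among these, the 5 with the smallest mean absolute difference in log2 signal from miR-483-5p over the 2 isolations were miR-1930-3p (0.18), miR-5128 (0.28), miR-5103 (0.29), miR-107-3p (0.32) and miR-30c-5p (0.37). miR-1930-3p had signals of 12.3 and 5.07 in isolations 2 and 3, and its log2 difference between them was -1.28. The other 4 had signals of 9.61 to 11.3 in isolation 2 and of 7.92 to 8.40 in isolation 3. All 5 lay within the combined error of miR-483-5p in both isolations. This likeness rests on 2 arrays and on signals near the detection limit.

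For miR-483, only the 5p arm was detected, and for miR-675 neither arm was. The array carries both a 5p and a 3p feature, paired by name, for 384 hairpins. Of these, 54 had only the 5p arm detected in at least 1 isolation (14.1%), 37 only the 3p arm, 8 both arms and 285 neither (74.2%). miR-483 was thus 1 of the 54 hairpins with the 5p arm alone, and miR-675 1 of the 285 with neither. Among the 99 hairpins with a detected arm, the 5p arm alone made up 54.5%. In isolation 2 the counts were 54, 36 and 8, and in isolation 3 they were 47, 34 and 8. Since the features of the arms are read by different probes with different detection limits, no ratio of the miR-483 arms can be given.

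Other imprinted loci were set beside Igf2-H19 through a list of 115 features from the Dlk1-Dio3 locus (109 features), the Gnas-Nespas locus (4) and the Mest locus (2). The list covers these 3 loci alone, so its counts do not describe imprinted miRNAs in general. Of these, 7 were detected in at least 1 isolation (6.09%, against 16.7% of all mouse miRNAs), 6 from Dlk1-Dio3, 1 from Gnas-Nespas and 0 from Mest. miR-494-3p of Dlk1-Dio3 was the brightest, with signals of 149, 228 and 194 in isolations 1, 2 and 3, 21.2 times that of miR-483-5p in isolation 2. miR-296-5p, the detected miRNA of Gnas-Nespas, had signals of 26.0, 38.6 and 31.7. Both were brighter than miR-483-5p by more than the combined errors in isolations 2 and 3.

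In isolations 2 and 3, wherever they were detected, all 7 were brighter than miR-483-5p. The dimmest in isolation 3 was miR-341-3p, with 18.5 ± 3.80 in isolation 2 and 9.78 ± 2.62 in isolation 3 (signal ± its error), and it was not detected in isolation 1, the same pattern as miR-483-5p. miR-539-5p was detected in isolation 2 alone, with a signal of 20.8. The remaining miRNAs, miR-370-3p, miR-3070b-3p and miR-3072-5p, were detected in all 3 isolations with signals of 58.5 to 81.6 in isolation 2. Of the imprinted miRNAs listed, 5 were thus detected in isolation 1, and miR-483-5p was not among them.

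**Figure D3:**
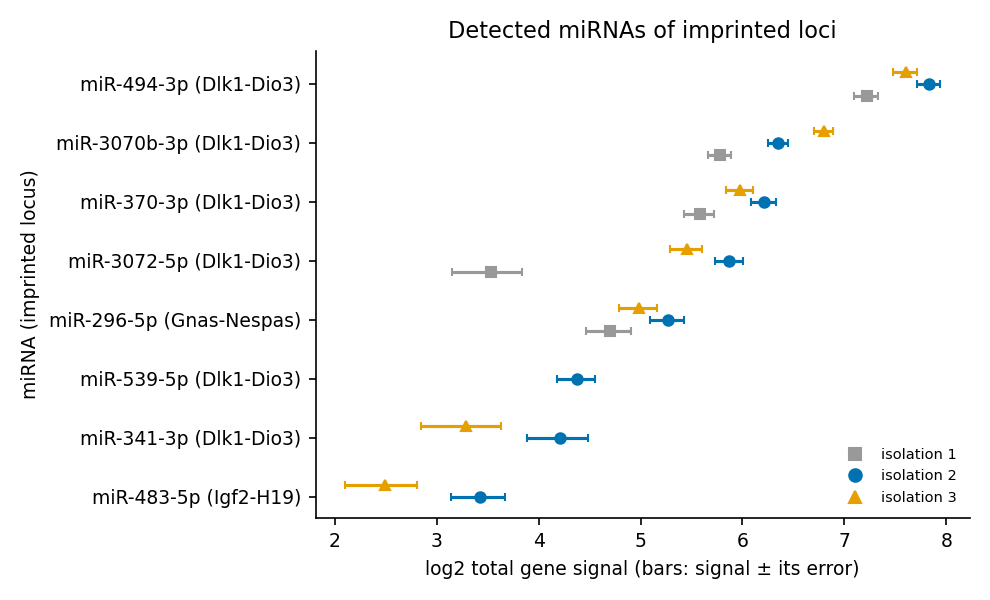
Log2 total gene signal (horizontal axis, bars for signal ± its error) of miR-483-5p and of the 7 detected miRNAs of the listed imprinted loci (vertical axis), with 1 symbol for each isolation in which the miRNA was detected. miR-483-5p has the lowest values of the plot in isolations 2 and 3, and miR-494-3p the highest.

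The base composition of miR-483-5p was then set against the array as a whole. Mature sequences were sought by name in RefSeq, without the entries of 1 chromosome, which were left out beforehand. They were found for 867 of the 1079 mouse miRNAs (80.4%), but for only 138 of the 180 detected ones (76.7%). The following shares therefore describe the 867 alone. miR-483-5p was the most purine-rich of the 867 and miR-483-3p was at place 866, so that the arms of 1 hairpin stood at opposite ends of the range. The median was 50% purines. Among the 8 miRNAs with 80% purines or more, 7 were detected in at least 1 isolation. Apart from miR-483-5p these were miR-1894-3p, miR-149-3p, miR-1224-5p, miR-211-3p, miR-5110 and miR-705, while miR-877-5p was not detected. All 6 were brighter than miR-483-5p in isolation 2, from 1.06 times for miR-149-3p to 74.6 times for miR-1224-5p, and 3 of them were also detected in isolation 1.

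Over bands of purine content, chosen after the values were seen, the share detected was 11.0% (19 of 173) below 40% purines, 8.50% (21 of 247) from 40% to 50%, 18.5% (53 of 287) from 50% to 60%, 19.4% (24 of 124) from 60% to 70% and 50% (14 of 28) from 70% to 80%. Detection was thus most frequent in the band that holds miR-483-5p, which had 7 of 8, or 6 of 7 without it. miR-483-3p and miR-675-3p, neither detected, fall in the lowest band, and miR-675-5p falls in the band with 24 of 124. These counts are a description, and the part of base composition in the signal of miR-483-5p was not tested.

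**Figure D4:**
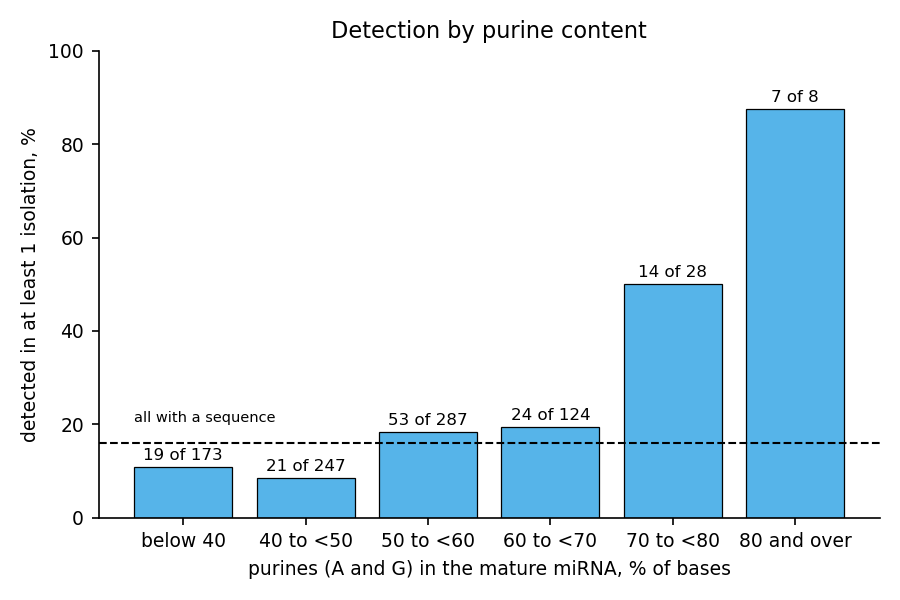
Share of mouse miRNAs detected in at least 1 isolation (vertical axis, %) by the purine content of the mature strand (horizontal axis, % of bases), for the 867 miRNAs with a sequence, with counts above the bars and a dashed line at 15.9% for all of them. The share is 8.50% to 19.4% in the 4 lower bands and 50% and 87.5% in the 2 upper ones, and miR-483-5p belongs to the last.

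Stretches of sequence that miR-483-5p has in common with other miRNAs were searched among the 867 array miRNAs with a sequence. The array miRNAs without a sequence, 42 of them detected, were not searched. A stretch had to lie on the same strand and hold a minimum of 8 identical bases in a row. Of the 867, 5 miRNAs shared such a stretch with miR-483-5p, and 2 of these were detected. The 4 shown include both detected ones and the 2 with the longest stretch, with the shared bases in capitals.
mmu-miR-1894-3p: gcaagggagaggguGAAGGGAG
mmu-miR-1892: auuugggGACGGGAGggaggau
mmu-miR-3059-3p: ccucuaggGAAGAGAAGGuugg
mmu-miR-1967: ugaggauccugGGGAGAAGAugc

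In miR-1894-3p the shared bases form the 3′ end of both strands. Its signal was 59.2 in isolation 2 and 50.4 in isolation 3, and it was not detected in isolation 1, so it had the pattern of detection of miR-483-5p at 5.51 times its signal in isolation 2. miR-1892 shares bases that include part of the seed of miR-483-5p, and its signals were 9.71 and 18.1 in isolations 2 and 3, so it was brighter in isolation 3 whereas miR-483-5p was brighter in isolation 2. miR-3059-3p and miR-1967, with 10 and 9 shared bases, were not detected in any isolation. For miR-483-3p, 8 miRNAs shared as many bases and 2 were detected, for miR-675-5p 1 of 2 was, and for miR-675-3p 0 of 2 were. Whether a probe for miR-483-5p also binds one of these strands was not tested.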

How the data were processed

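The authors deposited, for each of the 3 arrays (SurePrint G3 mouse miRNA rel.17, 1 color), the intensity of every feature (total gene signal, linear), its error and a detection call, written by Agilent Feature Extraction 10.10.1.1 per the labels. There is no shift between the deposited arrays. Undetected features carry a signal of 0.1 and an error of 1. Of 1157 features, 21 control and 57 viral features were left out. The number of arrays limits the precision.

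Signals were taken as log2 without a shift and described by isolation. Combined errors are the root of the summed squares. No test was run. Replicate numbers are those of the titles, as the source name gives replicate 1 for each. The miRNAs named are the 4 features, the 5 most like miR-483-5p among those with its detection pattern, detected miRNAs of the imprinted loci, neighbors in signal, and miRNAs singled out by sequence after values were seen. The features and lists were chosen with earlier results of these data known. In the imprinted list, miR-299 and miR-496 were matched to the lettered names on the array. Sequences are from RefSeq (GRCm38.p6), without the entries of 1 chromosome, so miRNAs encoded only there have no sequence here. The functions for place and likeness were tested on simulated arrays in which every feature was detected, and the one for shared stretches on made-up strings. The other steps, quantile normalization among them, were not tested in this way. Python 3.11.15, numpy 2.4.6, pandas 2.3.3 and matplotlib 3.10.9 were used.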

Additional observations from a re-analysis of the deposited data

How the results depend on the processing

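The number of miR-483 and miR-675 features detected, 1, stayed at 1 with a signal over 5 times its error. It also stayed at 1 with at least 2 isolations required and with each isolation left out, and was 0 with all 3 isolations required. A limit of 3 times the error gave 1 as well, but it changed no detection call and so is no separate check. The log2 signal of miR-483-5p, 2.96 (SD 0.66), was -1.49 (SD 0.29) relative to the 90th percentile of the array. Relative to the 75th percentile of miRNAs detected throughout it was -4.74 (SD 0.42). Both settings shift every miRNA of an array alike. Quantile normalization, which averages each place by signal over all 3 arrays, gave 0.93 (SD 0.14). At these places isolation 1 holds undetected features with a signal of 0.1, so this SD does not measure the spread between isolations 2 and 3. Without a shift, the log2 signal was 2.73 with the lowest detected signal used in isolation 1, and 2.49 to 3.43 with each isolation left out. The mean share of detected miRNAs dimmer than miR-483-5p, 7.06%, was 1.83% to 12.3% with each isolation left out, the lowest without isolation 2. It was 0% among miRNAs detected on all arrays. That 0% largely follows from the filter, as only 1 of the 22 miRNAs dimmer in isolation 2 was detected in isolation 1. Hairpins with only the 5p arm detected numbered 47 to 54, and features of the listed imprinted loci 6 to 7, with at least 2 isolations required or each isolation left out. No paired analysis was possible because there is only 1 group. Levels of undetected features are not resolved.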
